A study of Homo sapiens with 6 samples.

Results

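The PLAAT genes (older names HRASLS and, for PLAAT3 and PLAAT4, PLA2G16 and RARRES3) encode a small family of phospholipases and acyltransferases. All 5 members, PLAAT1 to PLAAT5, were taken from the 19402 genes of the deposited count table by their gene identifiers. The family was chosen because the transcript of PLAAT4 was far lower in libraries labelled IRF1-KO than in wild-type libraries, so that difference is described here and not tested. The other 4 members were taken by name, as relatives of PLAAT4, and were tested in the fit across all genes.

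Poly(A)-selected RNA was sequenced from CFPAC1, an established cell line of human pancreatic ductal adenocarcinoma. The WT group holds 3 pools of clones isolated by dilution after infection with the vector that the labels spell lentiCRIPSv2. The IRF1-KO group holds 3 pools of clones isolated in the same way, for which the labels add wild-type Cas9 and a guide RNA against IRF1. All 6 cultures had met the vector and were grown in IMDM with fetal bovine serum, glutamine and antibiotics, and no interferon treatment is given for them in the labels. Each library is a pool of clones, and the labels do not say that the pools are separate cultures, so every p-value here reflects only pool-to-pool spread, which may be technical. The comparison asks how transcripts depend on IRF1, an interferon-induced transcription factor.

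PLAAT enzymes share a fold with lecithin retinol acyltransferase (LRAT). They cut fatty acids from phospholipids or move an acyl chain from a phospholipid onto phosphatidylethanolamine, which makes N-acyl phosphatidylethanolamines, the precursors of N-acylethanolamines such as anandamide. PLAAT4, also called RARRES3 or TIG3, was first known as a gene induced by retinoids and is also induced by interferon, and it slows the growth of epithelial cells. PLAAT3 is the main phospholipase A2 of fat cells and is found in many tissues.

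Total counts ranged from 16413682 to 28258075 per library, and 13388 genes were counted deeply enough to be tested. Among them 15 (0.112%) were lower and 2 (0.0149%) were higher in IRF1-KO at an adjusted p under 0.05 (edgeR quasi-likelihood, Benjamini-Hochberg). IRF1 itself had 117, 123 and 132 CPM (read counts scaled to a common library size with TMM factors) in the libraries labelled IRF1-KO against 87.3, 91.3 and 82.6 CPM in the WT pools (edgeR adjusted p = 0.135). It was past the threshold with DESeq2, an alternative fit (adjusted p = 0.00105). A small insertion or deletion need not lower a transcript, so the level of IRF1 is no check of the editing. Of 8 epithelial markers, 7 were expressed in every library and their sum with CFTR lay between 4597 and 8142 TPM (a level scaled by exon length as well as library size) in WT and between 5135 and 7188 TPM in IRF1-KO. CFTR, the chloride channel mutated in this line, stood at no more than 0.3 TPM in any library. Markers of fibroblasts summed to 12.3 to 30.5 TPM and those of endothelium to 2.91 to 4.66 TPM. The leukocyte list reached 229 to 327 TPM, nearly all of it from CD68, a lysosomal protein that epithelial cells also make.

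Among the PLAAT genes, 4 lie in a cluster on chromosome 11 and PLAAT1 lies on chromosome 3. In the GRCh38 coordinates of the file, the cluster spans chromosome 11 from 63461404 to 63616883. PLAAT5 (ENSG00000168004.9, 63461404 to 63491194, minus strand) comes first, followed by LGALS12, PLAAT4 (ENSG00000133321.11, 63536808 to 63546462, plus strand), PLAAT2 (ENSG00000133328.4, 63552770 to 63563379, minus strand) and PLAAT3 (ENSG00000176485.11, 63573195 to 63616883, minus strand). PLAAT1 (ENSG00000127252.6) spans 193241125 to 193277738 on the plus strand of chromosome 3. The genes differ in sequence: no word of 50 bases in the coding transcripts of any PLAAT gene in GENCODE 29 occurs in another, and 2 words of 25 bases are shared, between PLAAT3 and PLAAT5. Their exons in the file share no base with those of any other gene in the file.

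The RefSeq promoter table (GRCh38.p14) matched PLAAT1 and PLAAT3 of the 5 members. The 250 bases before their starts are shown, on the strand of the gene, because PLAAT3 is the abundant neighbour of PLAAT4 whose groups overlapped and PLAAT1 is the member whose values were higher in IRF1-KO. They were searched on both strands, with the 50 bases after the start, for the core of the element that IRF factors recognise, a pair of GAAA separated by any 2 bases.
PLAAT3, chr11:63614438-63614687, minus strand: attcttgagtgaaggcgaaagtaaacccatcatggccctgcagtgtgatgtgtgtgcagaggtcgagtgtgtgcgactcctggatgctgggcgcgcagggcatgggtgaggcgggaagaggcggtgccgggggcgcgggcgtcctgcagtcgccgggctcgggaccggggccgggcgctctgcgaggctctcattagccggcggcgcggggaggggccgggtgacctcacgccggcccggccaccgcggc
PLAAT1, chr3:193240972-193241221, plus strand: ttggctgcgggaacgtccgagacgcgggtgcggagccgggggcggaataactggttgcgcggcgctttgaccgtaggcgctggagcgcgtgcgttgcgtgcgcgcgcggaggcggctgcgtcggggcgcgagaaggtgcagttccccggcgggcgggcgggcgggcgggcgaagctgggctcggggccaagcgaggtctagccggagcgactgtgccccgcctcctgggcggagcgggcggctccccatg
Neither window holds the element, as is the case for most promoters: 1255 of 35116 promoters in the table (3.57%) hold it. Both windows are rich in G and C, at 70.3% over the 300 bases for PLAAT3 and 76.7% for PLAAT1, against a median of 58.7% over all promoters. A direct repeat of AGGTCA with any 5 bases between the copies, a site of retinoic acid receptors, was also searched on both strands and was in neither window. It was in 2 of the 35116 promoters. For PLAAT3 the promoter table gives 2 starts, and the first is shown. The second, with a window from 63614434 to 63614683, holds no IRF element either. Both starts lie inside the exon span of PLAAT3 in the file, whose 5′ end is at 63616883. The search does not cover the bases before that end.

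PLAAT4 was among the most abundant transcripts of the WT pools and a low one in IRF1-KO. In WT it had 7257, 7967 and 4408 reads in replicates 1 to 3, or 397, 433 and 212 CPM. In IRF1-KO it had 161, 311 and 297 reads, or 9.82, 10.9 and 11.1 CPM. The 3 IRF1-KO libraries lay close together and far below the lowest WT library, which was replicate 3. The WT mean of 347 ± 119 CPM stood against 10.6 ± 0.691 CPM for IRF1-KO (± SD, n = 3 per group), a log2 fold change of −5.03 ± 0.30 (SE) or a 32.7-fold lower level. It was the lowest log2 fold change of all 13388 tested genes, and the next lowest among genes averaging at least 2 CPM in the higher group was −4.15. These values chose the family, and nothing is read from PLAAT4 being among the 6.75% of tested genes with every IRF1-KO library below every WT library. The log2 fold change lay between −5.27 and −4.84 over all alternative settings, including each library left out in turn.

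The level per length shows the same shift in the order of transcripts. In TPM, PLAAT4 stood at 1129, 1291 and 616 in WT replicates 1 to 3, as the 60th, 50th and 168th most abundant gene of the table. In IRF1-KO it stood at 29.1, 32.0 and 33.0 TPM, between rank 4817 and rank 5375. The transcript was thus still counted in every IRF1-KO library, by at least 161 reads.

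PLAAT3, whose nearest end lies 26733 bases from PLAAT4, had groups that overlapped. Its WT replicates 1 to 3 gave 351, 342 and 196 CPM, and its IRF1-KO replicates gave 264, 313 and 277 CPM. The IRF1-KO libraries lay inside the WT range, and WT replicate 3 was the lowest of the 6. The WT mean was 296 ± 87.4 CPM, beside 285 ± 25.6 CPM for IRF1-KO (± SD, n = 3 per group). The log2 fold change of −0.06 ± 0.22 (SE) missed the threshold (edgeR quasi-likelihood, adjusted p = 0.967), and its 95% interval ran from −0.57 to 0.46. The data leave room for a change of that size in either direction. The log2 fold change was −0.26 without WT replicate 3 (adjusted p = 0.474) and 0.10 without WT replicate 1 (adjusted p = 0.928).

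**Figure D1:**
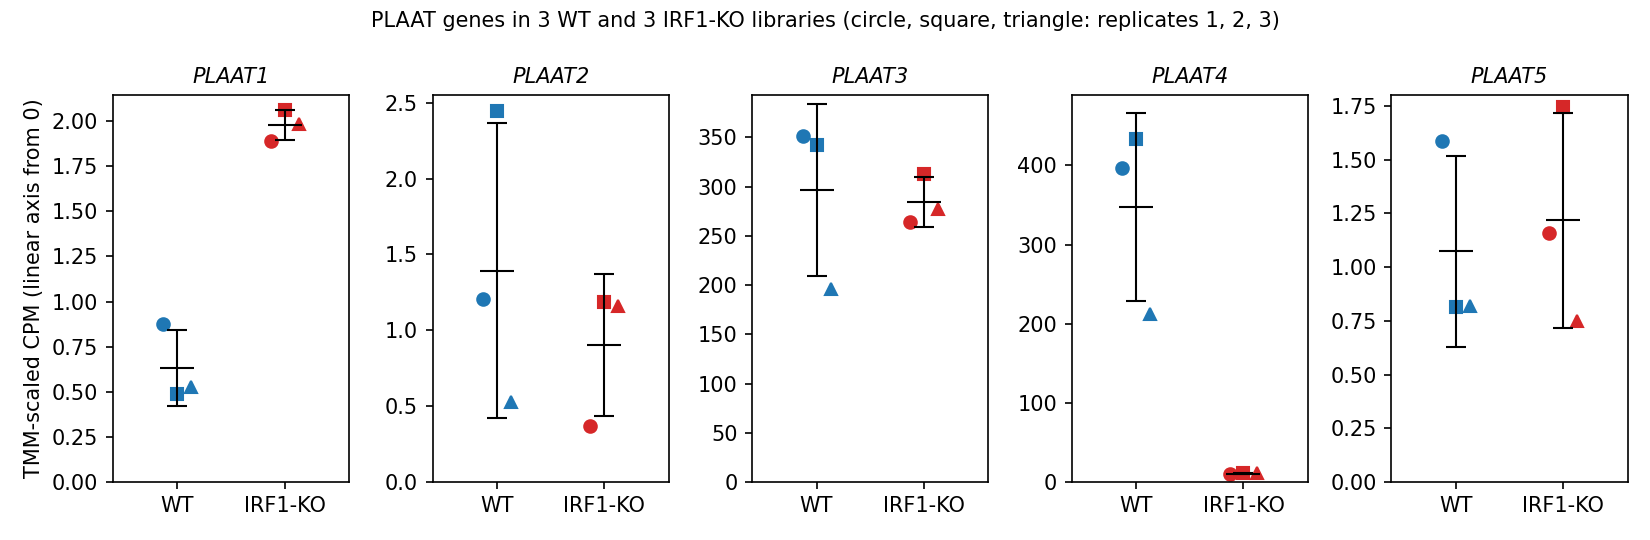
Expression of PLAAT1 to PLAAT5 in CPM on linear axes from 0, each with its own range, in 3 WT libraries (blue) and 3 IRF1-KO libraries (red). Points are libraries, and the black bars are the mean and SD. PLAAT4 falls from a mean of 347 to 10.6 CPM, PLAAT3 has overlapping groups, and the other 3 members stay under 2.5 CPM.

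The leading member of the family differed between the groups. PLAAT4 made up 72.9% ± 1.45 of the summed TPM of the 5 genes in WT and 7.95% ± 0.536 in IRF1-KO (± SD, n = 3 per group), a description that rests on the same values. PLAAT3 made up 26.3% ± 1.59 in WT and 88.9% ± 0.719 in IRF1-KO. PLAAT3 itself ranked between 302 and 596 among all genes in WT and between 328 and 411 in IRF1-KO. The family sum was 1557, 1732 and 859 TPM in WT replicates 1 to 3 and 366, 432 and 389 TPM in IRF1-KO replicates 1 to 3.

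**Figure D2:**
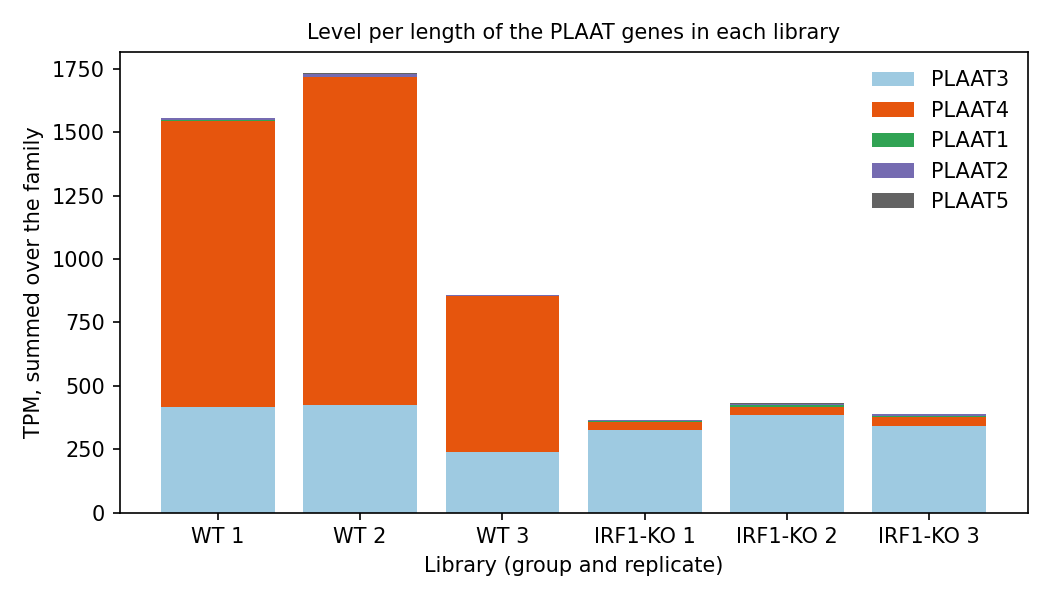
TPM of the 5 PLAAT genes stacked in each of the 6 libraries, with the vertical axis from 0. PLAAT4 (orange) is the larger part of each WT bar and a thin band in IRF1-KO, while PLAAT3 (light blue) stays between 237 and 425 TPM.

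The spread among WT pools was wide for both abundant members, and the same pool was lowest in both. WT replicate 3 was below the mean of the other WT libraries by 0.97 in log2 CPM for PLAAT4 and by 0.83 for PLAAT3, whereas the median of all tested genes differed by 0.02. The SD of PLAAT4 over the WT libraries was 0.56 in log2 CPM, larger than in 96.0% of the 500 genes nearest to it in level, and that of PLAAT3 was 0.48, larger than in 93.4% of its 500. Over the IRF1-KO libraries the SD of PLAAT4 was 0.09, larger than in 15.0% of genes of like level. The ratio of PLAAT4 to PLAAT3 in TPM varied less than either gene among WT pools, at 2.71, 3.04 and 2.60, and was 0.0892, 0.0831 and 0.0962 in IRF1-KO.

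Epithelial markers moved with this library. Their median in WT replicate 3 was 1.09 below the mean of the other WT libraries in log2 CPM, while the interferon-gamma-induced genes had a median difference of 0.01. Medians of the fibroblast, leukocyte and endothelial lists were higher there than in the other WT libraries, by 0.30, 0.48 and 0.66 in log2 CPM. They rest on only 3, 3 and 2 tested genes, and the highest member of each list differed in direction. In WT replicates 1 to 3, COL1A1 had 32.1, 46.9 and 25.9 CPM, CD68 had 138, 126 and 184 CPM, and KDR had 4.27, 3.81 and 4.13 CPM. CDH1, the epithelial cadherin, had 302, 240 and 66.4 TPM in WT replicates 1 to 3, and KRT7, a keratin of ductal epithelium, had 470, 465 and 149 TPM. EPCAM, an epithelial adhesion molecule, had 622, 637 and 296 TPM. The markers did not fall alike: KRT19, the highest of the list, had 2474, 3577 and 2244 TPM in WT replicates 1 to 3. The part of these differences in the PLAAT values of WT replicate 3 was not tested. Fewer cells of a type and less RNA per cell cannot be told apart in such pooled RNA. The log2 fold change of PLAAT4 was −5.27 without WT replicate 3, a larger difference because that library has the lowest WT value.

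None of the 4 members other than PLAAT4 passed the threshold with edgeR, where 0.127% of all tested genes did, and none with DESeq2 after the same filter. Of the 13122 genes to which DESeq2 gave an adjusted p, 0.983% were lower, 1.55% higher and 2.53% either. At an unadjusted p under 0.05, PLAAT1 was higher (5.39% of tested genes were) and none of these 4 was lower (3.75% were; 9.14% in either direction). PLAAT1 was also the only one of the 4 whose groups did not overlap, which held for 14.8% of tested genes.

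PLAAT1 had values in the opposite direction to PLAAT4, at a low level. It had 16, 9 and 11 reads in WT replicates 1 to 3 and 31, 59 and 53 reads in IRF1-KO replicates 1 to 3, or 0.876, 0.490 and 0.529 CPM against 1.89, 2.06 and 1.99 CPM. Every IRF1-KO library was above every WT library, which was also the case for 8.03% of tested genes. The log2 fold change was 1.64 ± 0.36 (SE), with a 95% interval from 0.82 to 2.47, and it missed the threshold over all genes (edgeR quasi-likelihood, adjusted p = 0.166). DESeq2 gave an adjusted p of 0.0596 on the same genes and of 0.0458 when no filter on low counts was applied, an alternative added after the data were seen. Over the 14 alternatives that gave it a value, the log2 fold change was between 1.49 and 1.97. With a correction for GC content, also added after the data were seen, it was 1.70. All 5 members passed the filter on low counts. The WT counts of PLAAT1, an acyltransferase best known from heart, muscle and testis, were near its floor, so its passing leaned on the IRF1-KO libraries.

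PLAAT2 and PLAAT5 were close to the floor of what was counted. PLAAT2, an N-acyltransferase of the gut lining among other sites, had 22, 45 and 11 reads in WT and 6, 34 and 31 reads in IRF1-KO. These are 1.20, 2.45 and 0.529 CPM against 0.366, 1.19 and 1.16 CPM, with groups that overlap. The log2 fold change of −0.58 ± 0.63 (SE) missed the threshold (edgeR quasi-likelihood, adjusted p = 0.857), and its 95% interval from −2.05 to 0.90 shows how little these counts say. Its value was 0.10 without WT replicate 2. PLAAT5, best known from testis, had 29, 15 and 17 reads in WT and 19, 50 and 20 in IRF1-KO, or 1.59, 0.816 and 0.817 CPM against 1.16, 1.75 and 0.749 CPM. The groups overlapped, and its log2 fold change of 0.19 ± 0.46 (SE) had a 95% interval from −0.88 to 1.26 (edgeR quasi-likelihood, adjusted p = 0.945). The level per length placed the 3 low members between 0.883 and 12.8 TPM in the 6 libraries. Their order depended on the group: by mean TPM it was PLAAT2 (7.20 ± 5.17), PLAAT1 (2.03 ± 0.638) and PLAAT5 (1.24 ± 0.484) in WT, and PLAAT1 (6.51 ± 0.255), PLAAT2 (4.71 ± 2.42) and PLAAT5 (1.43 ± 0.584) in IRF1-KO (± SD, n = 3 per group). In both groups PLAAT1 and PLAAT2 differed by less than the SD of PLAAT2, so these neighbours in the order are not set apart. The ranges of PLAAT1 and PLAAT5 overlapped in WT and did not in IRF1-KO.

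No tested gene around the PLAAT genes had a difference of the size seen for PLAAT4. Of 19 other genes in the file within 500 kb of a PLAAT gene, 11 were tested and none was past the threshold (edgeR quasi-likelihood). At an unadjusted p under 0.05, 1 was lower and 2 were higher, and neither DESeq2 nor limma-voom called any. These are 3 of 11 genes, where 9.14% of all tested genes passed in either direction. The lower one was RCOR2, a corepressor gene with 0.183 to 0.913 CPM over the 6 libraries (log2 fold change −1.26; edgeR adjusted p = 0.541), and the higher ones were SPINDOC and COX8A, all 3 named after their values were seen. RCOR2 had 11, 15 and 19 reads in the WT libraries and 3, 16 and 5 in the IRF1-KO libraries. Its passing of the filter on low counts thus leaned on the WT group, where it was higher. The median log2 fold change of the 11 tested neighbours was 0.01, against −0.02 over all tested genes. ATL3, a membrane protein that shapes the endoplasmic reticulum and the neighbour of PLAAT3, had 234 ± 8.20 CPM in the WT pools against 219 ± 22.4 CPM in the IRF1-KO pools. RTN3, a reticulon of the same membranes, had 359 ± 18.7 against 359 ± 14.2 CPM (± SD, n = 3 per group). LGALS12, the galectin gene between PLAAT5 and PLAAT4, had 1 to 27 reads per library and was not tested, and the genes SLC22A8, SLC22A9, SLC22A10, SLC22A24 and SLC22A25 beyond PLAAT5 had at most 1 read in any library. The nearest tested genes on that side, STX5, WDR74 and SLC3A2, lie further off. Together with ATL3, RTN3 and ZFTA they had log2 fold changes from −0.12 to 0.30. Around PLAAT1, the 3 nearest tested genes on each side had log2 fold changes from −0.26 to 0.79, the highest being that of FGF12, a fibroblast growth factor homologue (adjusted p = 0.303 with edgeR quasi-likelihood).

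**Figure D3:**
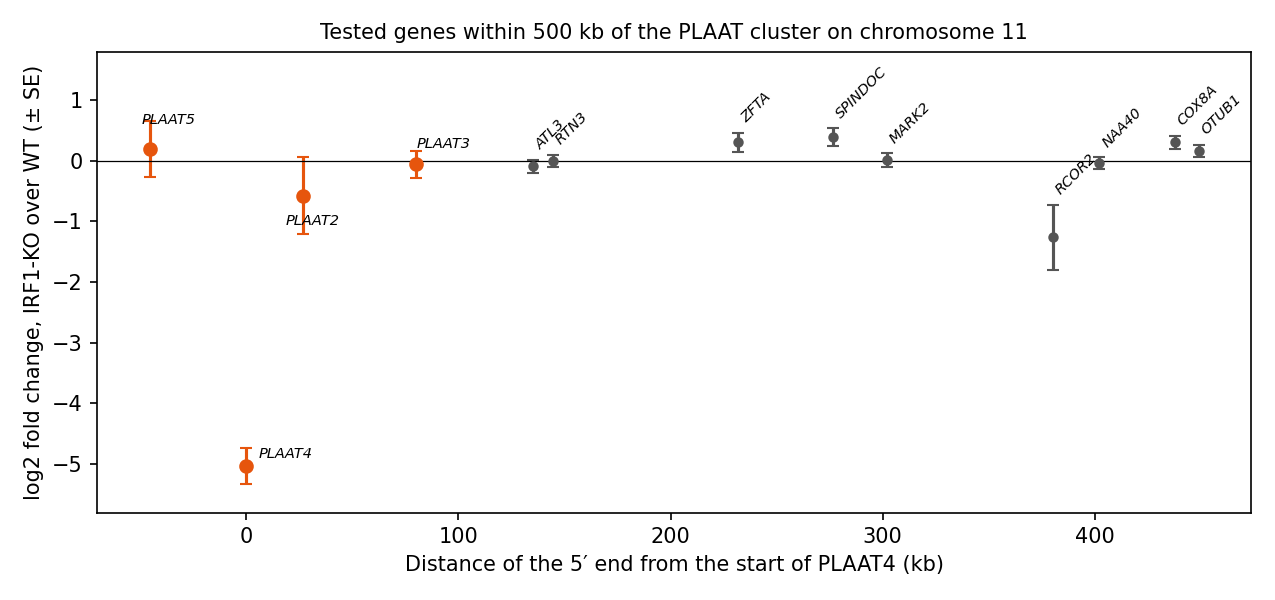
Log2 fold change (IRF1-KO over WT, with SE) of tested genes within 500 kb of the chromosome 11 cluster, by the distance of their 5′ end from the start of PLAAT4 in kb. PLAAT4 stands at −5.03, while the other PLAAT genes (orange) and their neighbours (grey) stand between −1.26 and 0.39.

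The 5 genes whose pattern over the 6 libraries was most like that of PLAAT4 were ERAP1, TLR3, GBP4, ERAP2 and TAPBPL, given as a description since PLAAT4 was chosen for its values in these libraries. Likeness was Pearson's r of log2 CPM over the 6 libraries among 3326 tested genes that spanned at least 1 in log2 CPM. The difference between groups largely sets it, and 30 genes had an r above 0.95 and 34 an r below −0.95. The 5 highest were ERAP1 (r = 0.9998) and ERAP2 (r = 0.990), aminopeptidases that trim peptides for MHC class I, TLR3 (r = 0.997), a sensor of double-stranded RNA, GBP4 (r = 0.992), an interferon-induced GTPase, and TAPBPL (r = 0.984), which edits peptides on MHC class I. ERAP1 had 173, 178 and 154 CPM in the WT pools against 86.6, 90.1 and 89.5 CPM in the IRF1-KO pools. TLR3 had 35.02, 41.7 and 30.7 CPM in the WT pools against 9.14, 10.5 and 10.0 CPM in the IRF1-KO pools. GBP4 had 31.5, 48.95 and 27.7 CPM in the WT pools against 3.17, 4.50 and 4.04 CPM in the IRF1-KO pools.

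In ERAP1, TLR3 and GBP4, as in PLAAT4, WT replicate 2 was the highest library and WT replicate 3 the lowest of the WT libraries. ERAP2 and TAPBPL did not share that order. In size the falls differed: the log2 fold change was −0.92 ± 0.10 (SE) for ERAP1, −1.85 ± 0.16 for TLR3, −3.19 ± 0.26 for GBP4, −1.74 ± 0.14 for ERAP2 and −1.25 ± 0.21 for TAPBPL, against −5.03 for PLAAT4. With edgeR quasi-likelihood the adjusted p was 0.0227 for ERAP1, 0.00737 for TLR3, GBP4 and ERAP2, and 0.104 for TAPBPL. ERAP1 lost its call without any 1 library other than WT replicate 3 (adjusted p = 0.0664 to 0.183) and in the fit blocked on replicate number (adjusted p = 0.0618). TLR3 and GBP4 lost theirs without IRF1-KO replicate 1 or 3, and ERAP2 without these or WT replicate 2 (adjusted p = 0.0586 to 0.0824).

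**Figure D4:**
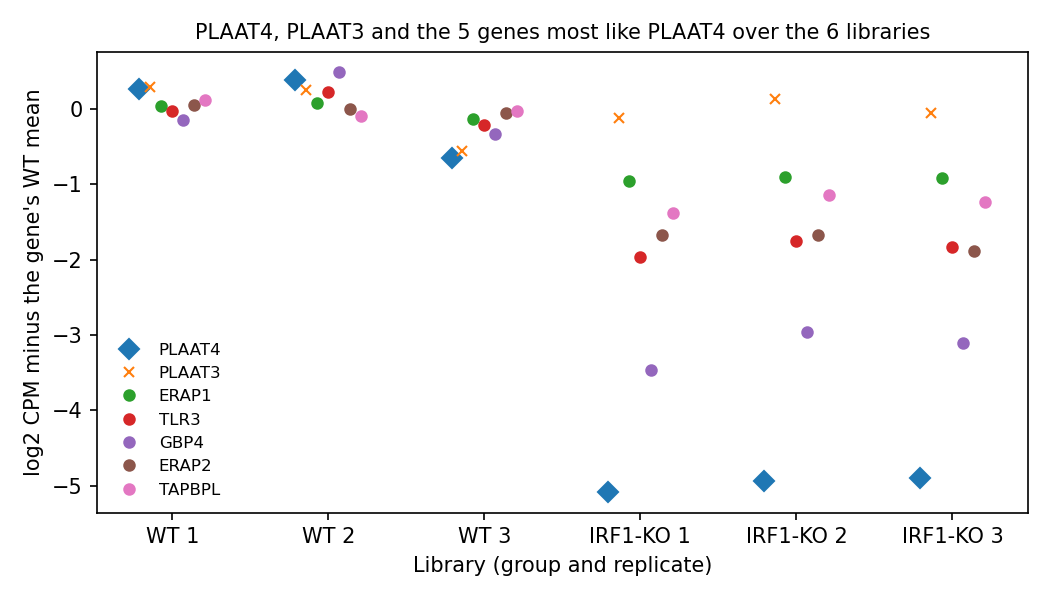
Log2 CPM minus the mean over WT of PLAAT4 (diamonds), PLAAT3 (crosses) and the 5 genes most like PLAAT4 (circles) in each library. All 5 are below their WT level in each IRF1-KO library, between GBP4 as the lowest and ERAP1 as the highest. PLAAT3 stays near 0 in the IRF1-KO libraries and is lowest in WT replicate 3.

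The RefSeq promoter table held all 5 of these genes, and 4 of them (80%) have the IRF element, on either strand, in a promoter window, against 4.14% of the tested genes in the table. The genes were picked for their pattern, so this is a description with no test. The stretches are shown because they hold the element within 30 bases of a RefSeq start. They are 50 bases on the strand of the gene, with the element in capitals, read as GAAA or, on the other strand, as TTTC.
ERAP1, chr5:96807924-96807973, minus strand: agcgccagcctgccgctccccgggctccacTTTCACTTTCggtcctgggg
TLR3, chr4:186069122-186069171, plus strand: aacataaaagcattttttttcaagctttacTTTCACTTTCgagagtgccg
GBP4, chr1:89198927-89198976, minus strand: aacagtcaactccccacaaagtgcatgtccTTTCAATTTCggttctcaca
ERAP2, chr5:96876440-96876489, plus strand: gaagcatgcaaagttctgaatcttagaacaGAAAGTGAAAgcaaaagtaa
ERAP1 and TLR3 hold the same 10 letters, TTTCACTTTC, and ERAP2 holds their reverse complement from 30 bases before the second of its 2 starts in the table. TAPBPL has no match in its windows. Of the interferon-gamma-induced genes listed for this comparison, 32 have a promoter in the table and 25 of these (78.1%) hold the element. A match in these letters does not show that a factor was bound.

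Most of the listed interferon-gamma-induced genes were lower in IRF1-KO. The list was drawn up with earlier results of these data known, and it holds TLR3 and GBP4. Its shares are therefore a description, with no test of the list. Of 46 tested interferon-gamma-induced genes, a list that does not include PLAAT4, 14 were lower and none higher at an adjusted p under 0.05 (edgeR quasi-likelihood), 45 had a negative log2 fold change, and the median was −1.08, against −0.02 over all tested genes, of which 0.112% were called lower. In 41 of them every IRF1-KO library was below every WT library, which held for 6.75% of all tested genes. UBA7, the activating enzyme of ISG15, and APOL6, an apolipoprotein L, were among them. UBA7 went from 17.1, 23.6 and 20.3 CPM to 1.71, 2.41 and 2.77 CPM, with a log2 fold change of −3.13 ± 0.24 (SE). APOL6 went from 121.7 ± 15.5 to 25.7 ± 5.06 CPM (± SD, n = 3 per group), with a log2 fold change of −2.24 ± 0.18 (SE), and lost its call without IRF1-KO replicate 1 (edgeR adjusted p = 0.0711). B2M, the light chain of MHC class I, had the highest level of the list, at means of 1324 TPM in WT against 714 TPM in IRF1-KO. B2M was not past the threshold with edgeR (adjusted p = 0.0978) and passed in 2 of 15 alternatives. DESeq2 called 38 members lower, where it called 0.983% of all genes it tested. The edgeR count of 14 became 2 without IRF1-KO replicate 1 or without IRF1-KO replicate 3, and 4 without WT replicate 2. Of all tested genes, 3, 3 and 5 were past the threshold in these edgeR fits.

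Enzymes and pathways related to the PLAAT family were centred near 0. Over 7 lists (phospholipases A2, N-acylethanolamine metabolism, the retinoid pathway, relatives of LRAT, peroxisome biogenesis and ether lipids, transglutaminases and RAS genes), 86 of 112 distinct genes were tested and none was past the threshold with edgeR. At an unadjusted p under 0.05, 3 were lower and 5 higher, against 3.75% lower and 5.39% higher over all tested genes. DESeq2 called 2, both lower, where it called 0.983% of all genes lower, and limma-voom called none. As many had negative as positive log2 fold changes (43 each), with a median of 0.00 when rounded, beside −0.02 over all tested genes.

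Among 18 tested phospholipases A2 of other families the median was 0.03, and the values ran from −0.46 to 0.59. The highest was PNPLA2, the fat cell triglyceride lipase ATGL, with 19.4, 23.6 and 27.1 CPM in the WT pools against 28.0, 42.0 and 35.1 CPM in the IRF1-KO pools, groups that do not overlap (log2 fold change 0.59 ± 0.19, SE; edgeR adjusted p = 0.363). Every IRF1-KO library was above every WT library for 2 of the 18, and for 8.03% of all tested genes. With the GC correction the log2 fold change of PNPLA2 was 0.21 (edgeR adjusted p = 0.783). PAFAH1B2, a catalytic subunit of platelet-activating factor acetylhydrolase, had the highest level, at means of 128 TPM in WT and 130 TPM in IRF1-KO. At a mean of 1012 TPM in WT, PLAAT4 stood above every listed enzyme of this kind. At a mean of 31.4 TPM in IRF1-KO, it stood below PAFAH1B2 and below PNPLA2 (35.2 TPM). Both places rest on the values that chose the family.

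The pathway that takes up the product of PLAAT acyltransferases held 10 tested genes, with a median of −0.09 and values from −1.22 to 0.64. At an unadjusted p under 0.05 with edgeR, 1 was lower and 1 higher, where 3.75% and 5.39% of all tested genes were. GDE1, a phosphodiesterase that releases N-acylethanolamines, had both the smallest p and the highest level, with 106, 89.9 and 94.4 CPM in the WT pools against 131, 117 and 113 CPM in the IRF1-KO pools (log2 fold change 0.32 ± 0.11, SE; edgeR adjusted p = 0.428). NAPEPLD, the phospholipase D that cleaves N-acyl phosphatidylethanolamine, named for its role, had 14.2, 20.3 and 20.7 CPM in the WT pools against 15.2, 13.1 and 16.3 CPM in the IRF1-KO pools.

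PLAAT4 is a known retinoid target, and the retinoid pathway had a median of 0.03 over 26 tested genes, with values from −1.23 to 1.26. BCO1, which splits beta-carotene into retinal, had the smallest p, with 10.4, 8.32 and 7.98 CPM in the WT pools against 4.57, 3.25 and 3.63 CPM in the IRF1-KO pools. Its log2 fold change of −1.23 ± 0.23 (SE) was not past the threshold with edgeR (adjusted p = 0.134) and was past it with DESeq2 (adjusted p = 0.000933). The retinoic acid receptor RARA, named for its role, had 45.5, 48.5 and 57.6 CPM in the WT pools against 64.6, 60.6 and 60.8 CPM in the IRF1-KO pools. Every IRF1-KO value of RARA was above every WT value, which held for 8.03% of tested genes. RARG, a second receptor of this kind, had 26.8 ± 7.46 CPM in the WT pools against 25.2 ± 5.09 CPM (± SD, n = 3 per group), with groups that overlap. LRAT, which shares its fold with the PLAAT enzymes and esterifies retinol, had 12.6, 23.2 and 8.84 CPM in the WT pools against 15.5, 14.4 and 15.4 CPM in the IRF1-KO pools.

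Transglutaminases, which crosslink proteins and among which TGM1 is known as a partner of PLAAT4 in keratinocytes, held 4 tested genes of 8. TGM2 was by far the highest of them, at means of 1127 TPM in WT and 1150 TPM in IRF1-KO. TGM1 had 3.83, 3.05 and 2.16 CPM in the WT pools against 2.68, 3.04 and 2.51 CPM in the IRF1-KO pools, with overlapping groups. TGM5, an enzyme of the outer skin, had 2.08, 2.83 and 1.01 CPM in the WT pools against 0.366, 0.349 and 0.262 CPM in the IRF1-KO pools. Its log2 fold change of −2.58 ± 0.49 (SE) was not past the threshold with edgeR (adjusted p = 0.134). It was past it with DESeq2 (adjusted p = 0.00687) and without WT replicate 3 (edgeR, adjusted p = 0.0421). With 6 to 10 reads in each IRF1-KO library, TGM5 passed the filter on low counts only through the WT group, where it was higher. F13A1, the clotting factor XIII subunit and the remaining tested gene of the list, ran from 0.109 CPM or less in WT replicates 1 and 2 to 5.13 CPM in IRF1-KO replicate 3, a spread carried by single libraries; it was named after its values were seen.

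Peroxisome genes, listed because PLAAT enzymes can bind the peroxisomal import protein PEX19 and disturb peroxisomes, had all 22 members tested and a median of −0.05. PEX16, which helps form the peroxisomal membrane, led by p at a log2 fold change of 0.51 ± 0.17 (SE; edgeR adjusted p = 0.387), and ACBD5, a tether of peroxisomes, had the highest level, at 95.9 and 92.4 TPM. The 6 RAS genes, listed because PLAAT4 is known to restrain RAS signals, had a median of 0.07. MRAS led by p at a log2 fold change of 0.60 ± 0.44 (SE; edgeR adjusted p = 0.776), and its groups overlapped. That value was 0.29 when WT replicate 1 was left out and 0.27 when IRF1-KO replicate 3 was. RRAS had the highest level, at 134 and 141 TPM.

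**Figure D5:**
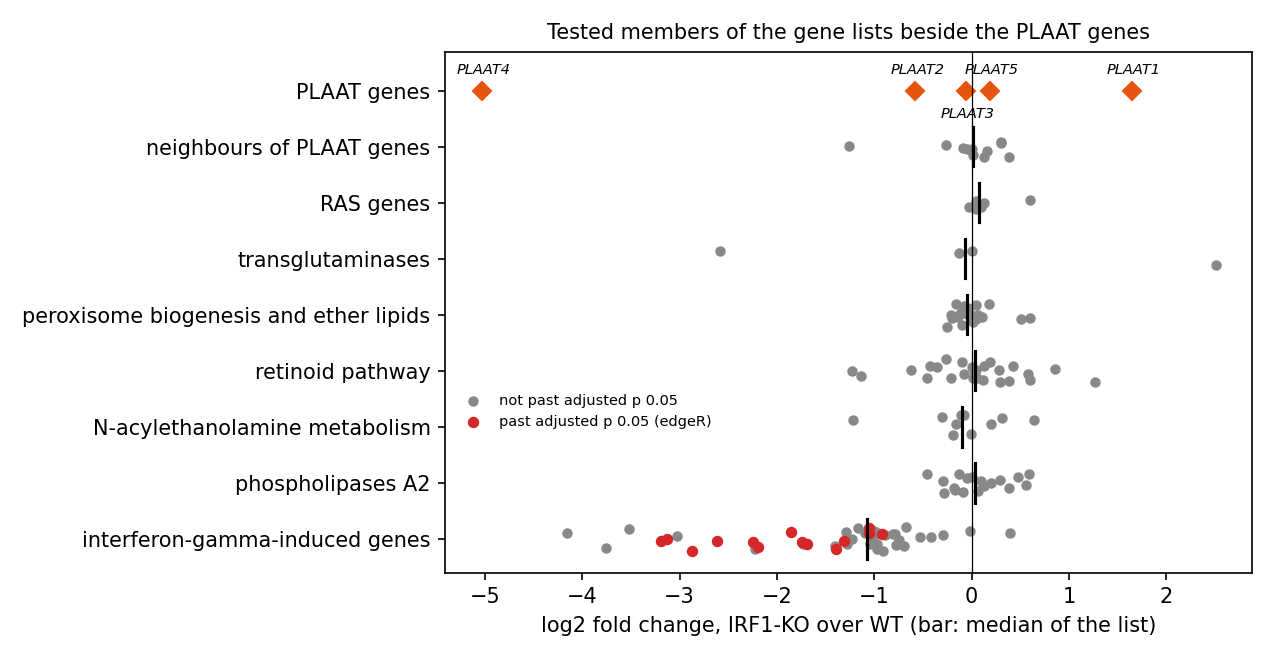
Log2 fold changes (IRF1-KO over WT) of tested genes in 8 lists and of the PLAAT genes (diamonds). Red points are past an adjusted p of 0.05 with edgeR and black bars are medians. The interferon-gamma-induced list has a median of −1.08, and the other 7 lists have medians between −0.09 and 0.07.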

How the data were processed

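The authors deposited whole-number read counts per gene in a table laid out as featureCounts writes it, per the file headers. Tools named in the submitters' processing notes are featureCounts 0.6.1 and edgeR 3.2.2, with the build GRCh38 (hg38). The sources used here do not give the aligner, annotation or strand setting. Exon length is the Length column of the authors' table. Current symbols were found for 19342 identifiers and GENCODE 29 symbols for 56 more, and 4 had none.

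The test was edgeR 4.0.16 in R 4.3.3 (filterByExpr, TMM, robust quasi-likelihood F test, two-sided, Benjamini-Hochberg over 13388 genes, threshold 0.05), with standard errors implied by F. TPM were computed from counts and exon length, and log2 CPM with a prior count of 2. Libraries of 1 group differed beyond sampling noise (chi-square over its degrees of freedom 27.0 to 57.6). The procedure was tested on simulated counts. Alternative settings were RLE or upper-quartile factors, no low-count filter, a stricter one (5 CPM or more in 3 or more libraries), DESeq2 1.42.0, limma-voom (limma 3.58.1), a replicate block and each library left out. A GC correction (natural spline, 5 degrees of freedom) and DESeq2 without a filter were added after the data were seen.

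The members and lists were chosen with earlier results of these data known. Named genes are the PLAAT genes and IRF1, the 5 genes most like PLAAT4, up to 4 members past the threshold of each list or else that with the smallest p, the member of each list with the highest TPM, and the 3 nearest tested genes on each side of each locus. Genes named for their role, markers, LGALS12 and the SLC22A genes fall outside that rule.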

Additional observations from a re-analysis of the deposited data

How the results depend on the processing

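The lower level of PLAAT4 kept its direction and size in all alternatives. Deviations from the group means correlated between same-numbered WT and IRF1-KO libraries at r of −0.0155, 0.253 and 0.0571. Libraries of unlike number gave −0.295 to 0.245. The deviations of 3 libraries per group constrain one another, so these values cannot decide whether the numbers pair the samples. With the replicate number as a block, 31 genes were past the threshold (27 lower and 4 higher) in place of 17 (15 and 2), 11 of them shared, and PLAAT4 had a log2 fold change of −4.97. Leaving out 1 library at a time gave 3 to 91 genes past the threshold (3 to 36 lower, 0 to 55 higher) and 2 to 20 of the interferon-gamma-induced genes. DESeq2 called 332 genes (129 lower, 203 higher), with 38 interferon-gamma-induced genes, 1 of the retinoid pathway and 1 transglutaminase. DESeq2 with no filter called 344 (131 lower, 213 higher) with the same counts of 38, 1 and 1 in these lists, and PLAAT1 (log2 fold change 1.66) passed the threshold. With edgeR and no filter there were 31 genes (26 lower, 5 higher). The stricter filter gave 4 higher genes, and PLAAT1, PLAAT2 and PLAAT5 have no value there. With the GC correction no gene was higher, and PLAAT3 stood at 0.0081. The transglutaminase count ran from 0 to 1 with libraries left out. Of the members not past the threshold, PLAAT2 ranged from −0.95 to 0.10, PLAAT3 from −0.26 to 0.10 and PLAAT5 from −0.18 to 0.59 with libraries left out, so their directions are not settled. The causes were not tested. The low counts of PLAAT1, PLAAT2 and PLAAT5 limit what can be seen of them.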
